A study of Mus musculus with 7 samples.

Results

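The cells described here are candidate hippocampal excitatory neurons of the posterior sections of an in situ expression study of mouse brain, chosen by their raw transcript counts of 6 genes. A cell was gated if it held at least 5 transcripts of Slc17a7 (the vesicular glutamate transporter of cortex and hippocampus), at most 2 of Slc17a6 (the transporter of most thalamic neurons) and at most 3 of Gad1 and Gad2 together (the GABA-synthesising enzymes). A gated cell became a member with at least 8 transcripts of Prox1, meant to mark dentate granule cells, or with at least 3 of Fibcd1, meant to mark CA1 pyramidal cells. These groups are called the Prox1 arm and the Fibcd1 arm. The gate found 388 members, 379 in the Prox1 arm and 9 in the Fibcd1 arm, among 384076 cells of the series and 163341 of the posterior sections. No cell passed both thresholds. Members made up 0.238% of posterior cells and 1.19% of the 32704 posterior cells inside the gate. The remaining 32316 posterior cells are called other gated cells, and they include the Slc17a7 neurons of the cortex.

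The 7 fresh-frozen coronal hemisections came from wild-type mice and were 10 µm thick. The anterior sections (replicates 1 and 2) lay at bregma -0.58 mm, the intermediate ones (replicates 1 and 2) at -0.70 to -0.82 mm and the posterior ones (replicates 1, 3 and 4) at -0.94 mm, and no treatment is named. The sources used here do not give age, sex or strain, nor say whether sections came from separate animals, so that p-values cover only section-to-section spread, possibly technical. Replicates 1 and 2 lay on one slide and the posterior replicates 3 and 4 on another. Transcripts of a fixed panel were measured by Xenium, an imaging method that reads single RNA molecules in place and allots each to an outlined cell. The study was designed to examine neurons of the anterior thalamic nuclei, so that hippocampal cells entered only where a section crossed the hippocampus.

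The hippocampus proper holds excitatory pyramidal cells in its CA fields and small, densely packed granule cells in the dentate gyrus. Granule cells keep the homeobox factor Prox1 throughout life and send mossy fibres to CA3, whose terminals store the opioid peptide dynorphin. CA1 pyramidal cells are known for Fibcd1, Wfs1 and Neurod6. Prox1 is also made by cells of the oligodendrocyte lineage and by some interneurons, and an outlined cell can hold transcripts of their neighbours. In these sections it was also found in cells with over 2 Slc17a6 transcripts, as given below.

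The table held 297 genes and a median of 339 transcripts per cell. The median per section ran from 278 to 390. Posterior cells of the Prox1 arm had medians of 383, 408 and 380 transcripts in replicates 1, 3 and 4, against 414, 407 and 459 in other gated cells. Control probes, which match no transcript, gave 0.670 counts per posterior cell of the Prox1 arm and 0.345 per other gated cell. Levels below are transcripts per 1000 transcripts of the 291 genes outside the gate, as mean ± SD over sections, and no level of one gene is set against that of another. Of the cell names, 8 occurred in more than 1 section, and no member's name was shared between posterior sections.

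The Prox1 arm was found in every section but was larger in the posterior ones. It held 191, 77 and 111 cells in posterior replicates 1, 3 and 4, against 30 and 27 cells in the anterior sections and 39 and 40 in the intermediate ones. As a share of gated cells this was 1.71% (95% Wilson interval 1.49 to 1.97), 0.698% (0.559 to 0.871) and 1.06% (0.879 to 1.27) in the posterior sections, and 0.273% (0.191 to 0.389) and 0.248% (0.170 to 0.360) in the anterior ones. These intervals cover counting error only. The posterior shares (1.16 ± 0.51%, n = 3) and the anterior shares (0.260 ± 0.018%, n = 2) did not overlap, a two-sided exact permutation test gave p = 0.2, and 0.2 is the smallest p that 3 against 2 sections allow. Posterior replicate 1 alone held 50.4% of the posterior cells of the arm. The threshold on Prox1 chose these cells, so their Prox1 level is a description: 26.3 ± 2.1 per 1000 in posterior members.

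The Fibcd1 arm was rare in every section. It held 3, 4 and 2 cells in posterior replicates 1, 3 and 4, 4 and 2 cells in the anterior sections and 1 and 1 in the intermediate ones. That is 0.0275% of gated posterior cells (95% Wilson interval 0.0145 to 0.0523), 0.0274% of gated anterior cells (0.0126 to 0.0598) and 0.00921% of gated intermediate cells (0.00253 to 0.0336), with intervals that overlap. All 9 posterior members sat at the threshold, with exactly 3 Fibcd1 transcripts. Just outside it, 78 posterior gated cells (0.239%) held 2. Gated cells with at least 1 Fibcd1 transcript made up 2.82% of the anterior, 3.36% of the intermediate and 3.49% of the posterior sections.

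Other CA1 markers were mixed in these 9 cells, which are therefore called by their gate. Neurod6, a transcription factor of cortical and hippocampal pyramidal neurons, ran from 0 to 24 transcripts per cell with a median of 1 and was at 0 in 3 of the 9, while the median of other gated cells was 3. Wfs1, which encodes wolframin of the endoplasmic reticulum, had a median of 1 (0 to 22) and was at 0 in 4 of the 9, against a median of 0 in other gated cells, and its mean was higher in the 9 cells (3.44 against 1.501). Pou3f1 was at 0 in 8 of the 9, and its median in other gated cells was also 0. The cells differed widely from each other, with 0 to 41 transcripts of Bhlhe22, a transcriptional repressor that acts in developing neurons, and 0 to 19 of the endothelial gene Cldn5. No section held 10 cells of this arm, so the 3 planned comparisons of it could not be run, and it is described only by these counts.

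**Figure D1:**
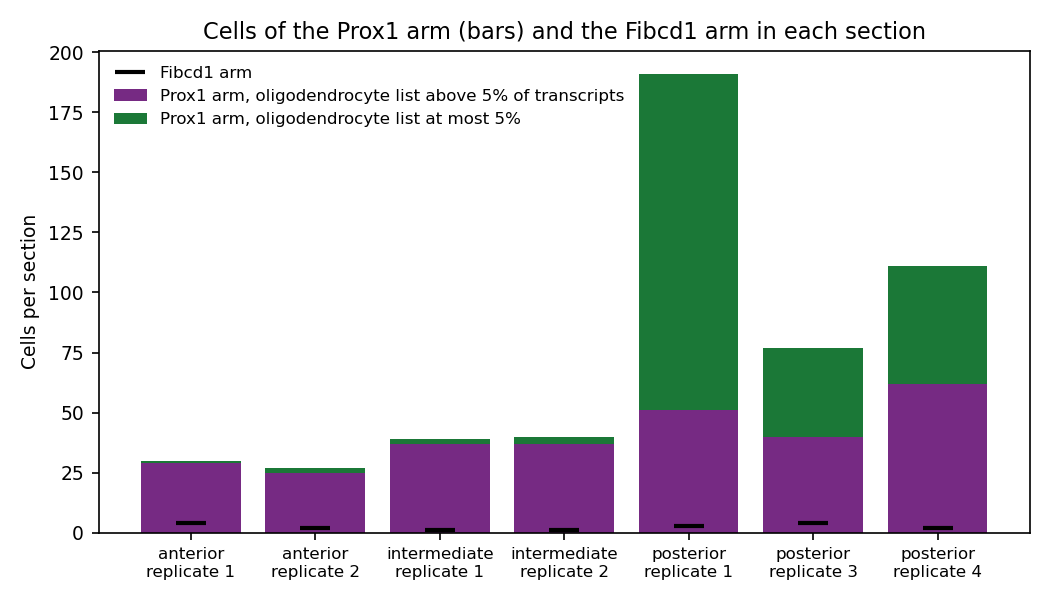
Number of cells per section (vertical axis) of the Prox1 arm, as stacked bars divided by the share of a cell's transcripts that belong to the oligodendrocyte lineage list, and of the Fibcd1 arm (black dashes). The low-share part of the bar holds 140, 37 and 49 cells in the posterior sections and at most 3 elsewhere.

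The Prox1 arm was a mix of cells with and without oligodendrocyte transcripts. The oligodendrocyte lineage list has 7 measured genes: Opalin (a myelin paranodal protein), Sox10 (the lineage's master regulator), Gjc3 (a connexin), Pdgfra, Cspg4, Gpr17 and Zfp536. In anterior members it summed to 132 and 137 per 1000 transcripts, in posterior members to 40.3, 66.5 and 75.9 in replicates 1, 3 and 4, and in other gated posterior cells to between 13.1 and 13.5. Anterior members had 38.9 and 41.8 of Opalin, and posterior members had 8.53, 15.98 and 19.1, so that the groups did not overlap.

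Within the posterior members the list's share fell into 2 ranges, and the cells were divided at 5% of a cell's transcripts. This division was chosen after the values were seen and gets no test. At most 5% was found in 226 of 379 posterior members, with 140 of 191 (73.3%) in replicate 1, 37 of 77 (48.1%) in replicate 3 and 49 of 111 (44.1%) in replicate 4. It was found in 3 of 57 anterior members and 5 of 79 intermediate ones. Few cells lay near the division, with 10 posterior members between 4 and 6%. Cells above 5% numbered 29 and 25 in the anterior, 37 and 37 in the intermediate and 51, 40 and 62 in the posterior sections. The low-share cells therefore ranged from 1 to 140 per section and the high-share cells from 25 to 62.

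C1ql2 separated these ranges. Its product is a secreted C1q-like protein that organises synapses of the mossy fibres, and the gate did not use it. At least 1 C1ql2 transcript was found in 188 of 226 low-share posterior members (83.2%, interval 77.8 to 87.5, median depth 378 transcripts) and in 20 of 153 high-share ones (13.1%, 8.62 to 19.3, median depth 404). By section the low-share figure was 83.6%, 86.5% and 79.6%. None of the 57 anterior members held C1ql2, which allows a share of up to 5.26%, and 2 of 79 intermediate members did. The background can be read from cells that should lack it: 8.65% of posterior cells with at least 10 Opalin and no Slc17a7 transcripts held C1ql2 at a median depth of 219. Among other gated posterior cells 3.68% did at 427. These are no pure background, since they include cells just under the Prox1 threshold, of which 18.0% held C1ql2 at 6 or 7 Prox1 transcripts. Those were 59 cells with C1ql2 among the 32316 other gated ones, so they made up little of the 3.68%. With each cell thinned to 200 transcripts, C1ql2 was found in 42.8% of 376 posterior members (3 were too shallow), in 0% of 57 anterior members and in 1.97% of other gated posterior cells, where the unthinned shares were 54.9%, 0% and 3.68%.

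**Figure D2:**
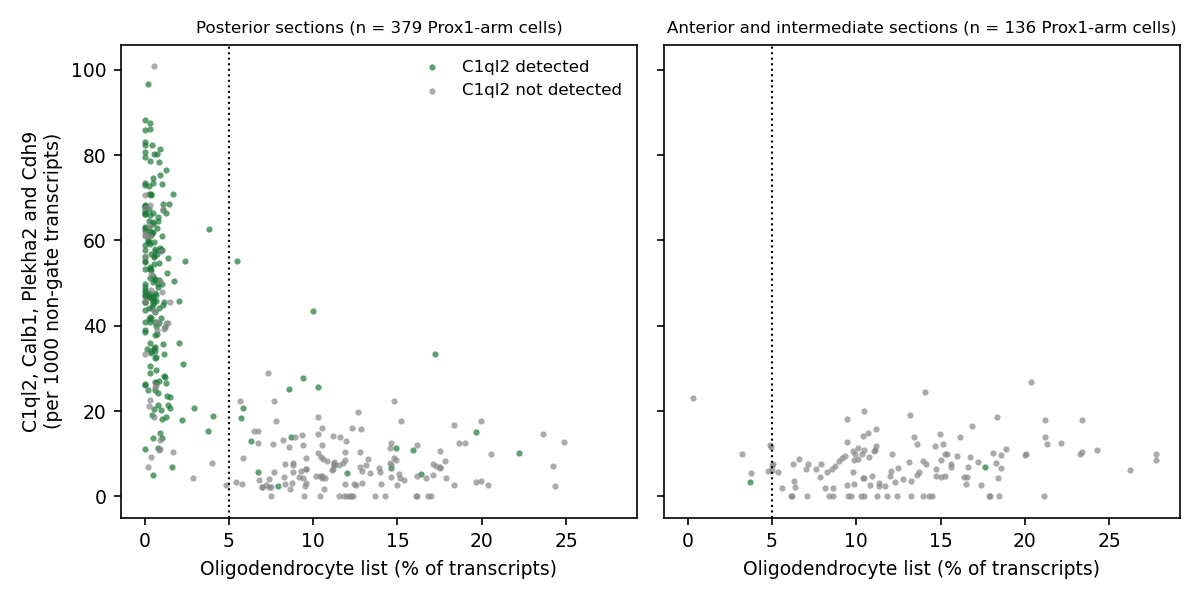
Each point is a cell of the Prox1 arm. The horizontal axis is the percent of its transcripts in the oligodendrocyte lineage list, the vertical axis the summed level of C1ql2, Calb1, Plekha2 and Cdh9 per 1000 transcripts outside the gate, green points hold C1ql2, and the dotted line is at 5%. Posterior cells left of the line sit high and mostly hold C1ql2, and the 136 anterior and intermediate cells lie almost all to the right, where 128 of them have over 5%.

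More posterior cells held C1ql2 the higher their Prox1 count was. Just outside the threshold, at 6 or 7 Prox1 transcripts, 18.0% of 328 gated posterior cells held C1ql2, and just inside it, at 8 or 9, 39.5% of 172 did. The share was 57.9% of 95 cells at 10 or 11, 72.3% of 83 cells at 12 to 15 and 86.2% of 29 cells with 16 or more. In the anterior sections 7.80% of 141 cells held it at 6 or 7 and 0 of 57 at 8 or more. Over the same posterior steps from 8 or 9 upwards, the median Opalin count per cell was 2, 0, 0 and 0, and the median depth was 367, 390, 408 and 501 transcripts. A deeper cell has more chance to show any gene, and the part of depth in this gradient was not tested.

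**Figure D3:**
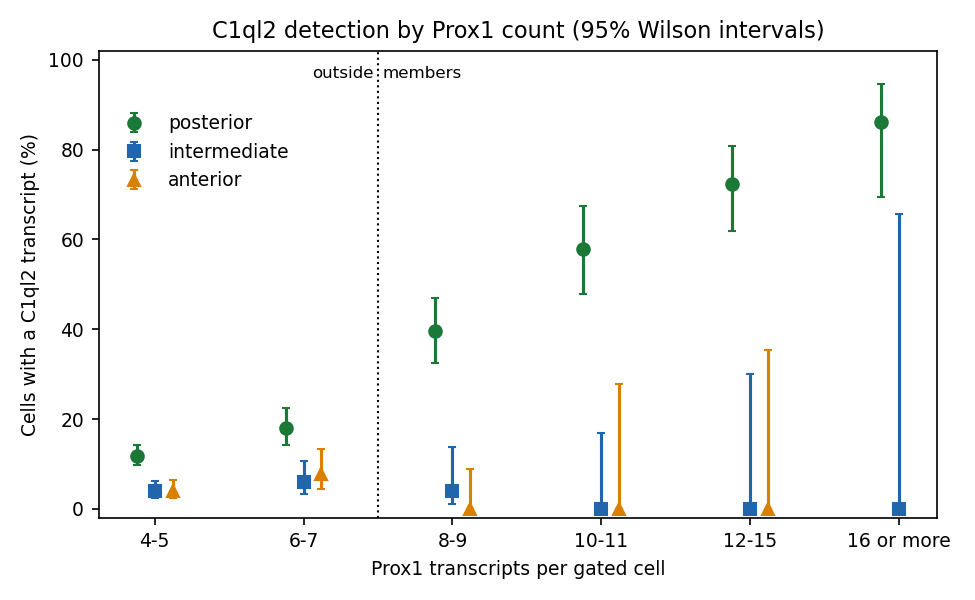
Percent of gated cells with at least 1 C1ql2 transcript (vertical axis, 95% Wilson intervals) by their number of Prox1 transcripts (horizontal axis) in posterior, intermediate and anterior sections. The dotted line marks the threshold for members, and the posterior share climbs from 39.5% to 86.2% to its right.

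Low-share posterior members carried a granule cell profile in all 3 sections, given here as a description. C1ql2 stood at 6.43, 5.88 and 4.87 per 1000 in replicates 1, 3 and 4, against 0.108, 0.101 and 0.0965 in other gated cells. Pdyn, the precursor of dynorphin, stood at 2.55, 3.90 and 3.59 against 0.228, 0.257 and 0.246. Calb1, the calcium buffer calbindin, stood at 13.9, 14.7 and 21.5 against 5.33, 5.53 and 5.42. In each case every low-share value lay above every value of other gated cells. The share of all genes separated in this way was not counted. In the whole arm, 72.9% of genes tested moved one way, up or down, in all 3 sections.

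Plekha2, which encodes a phosphoinositide-binding adaptor, stood at 18.5, 14.6 and 18.9 in low-share members and at 2.03, 1.78 and 1.96 in other gated cells. Bhlhe22 stood at 23.6, 19.7 and 23.5 against 5.49, 5.45 and 5.36. The unnamed gene 2010300C02Rik stood at 44.2, 45.2 and 41.1 against 14.1, 14.3 and 13.7. Sections differed more in Rreb1, a Ras-responsive zinc-finger factor, with 7.25, 6.52 and 14.02, and in Gfap, the astrocyte filament, with 11.01, 28.1 and 16.3.

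Neurod6 was nearly missing from the low-share members, while other cortical and CA1 genes were still present. Neurod6, given with the gate as a marker of these cells, stood at 0.988, 0.175 and 0.0579 per 1000, against 12.2, 10.8 and 8.64 in other gated cells, so that it did not mark them. Arc, an immediate early gene of active neurons, stood at 2.21, 1.86 and 0.637 against 24.6, 32.0 and 27.5. High-share members held Arc at 26.4, 39.0 and 24.3, near the range of other gated cells. Wfs1 stood at 1.26, 1.40 and 2.03 in low-share members against 3.08 to 3.72 in other gated cells, and the list of 12 cortical layer genes summed to 28.4 to 30.9 against 57.1 to 59.2.

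High-share posterior members held Opalin at 31.4 ± 1.3, Sox10 at 26.3 ± 0.68 and Gjc3 at 46.0 ± 1.8 per 1000 (n = 3). Anterior members, nearly all of them above the 5% division, held Sox10 at 25.8 and 27.2 and Gjc3 at 46.7 and 41.6. The list of C1ql2, Calb1, Plekha2 and Cdh9 summed to between 7.78 and 10.99 per 1000 in them, to 8.10 and 8.27 in anterior members, to between 8.47 and 8.60 in other gated posterior cells and to between 39.8 and 49.0 in low-share members. As groups, the 226 low-share members bore out the granule cell label by this list, and the 153 high-share members, with sums near those of other gated cells, did not. The division was made on oligodendrocyte genes, so the oligodendrocyte levels of the high-share members follow from it and are a description.

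**Figure D4:**
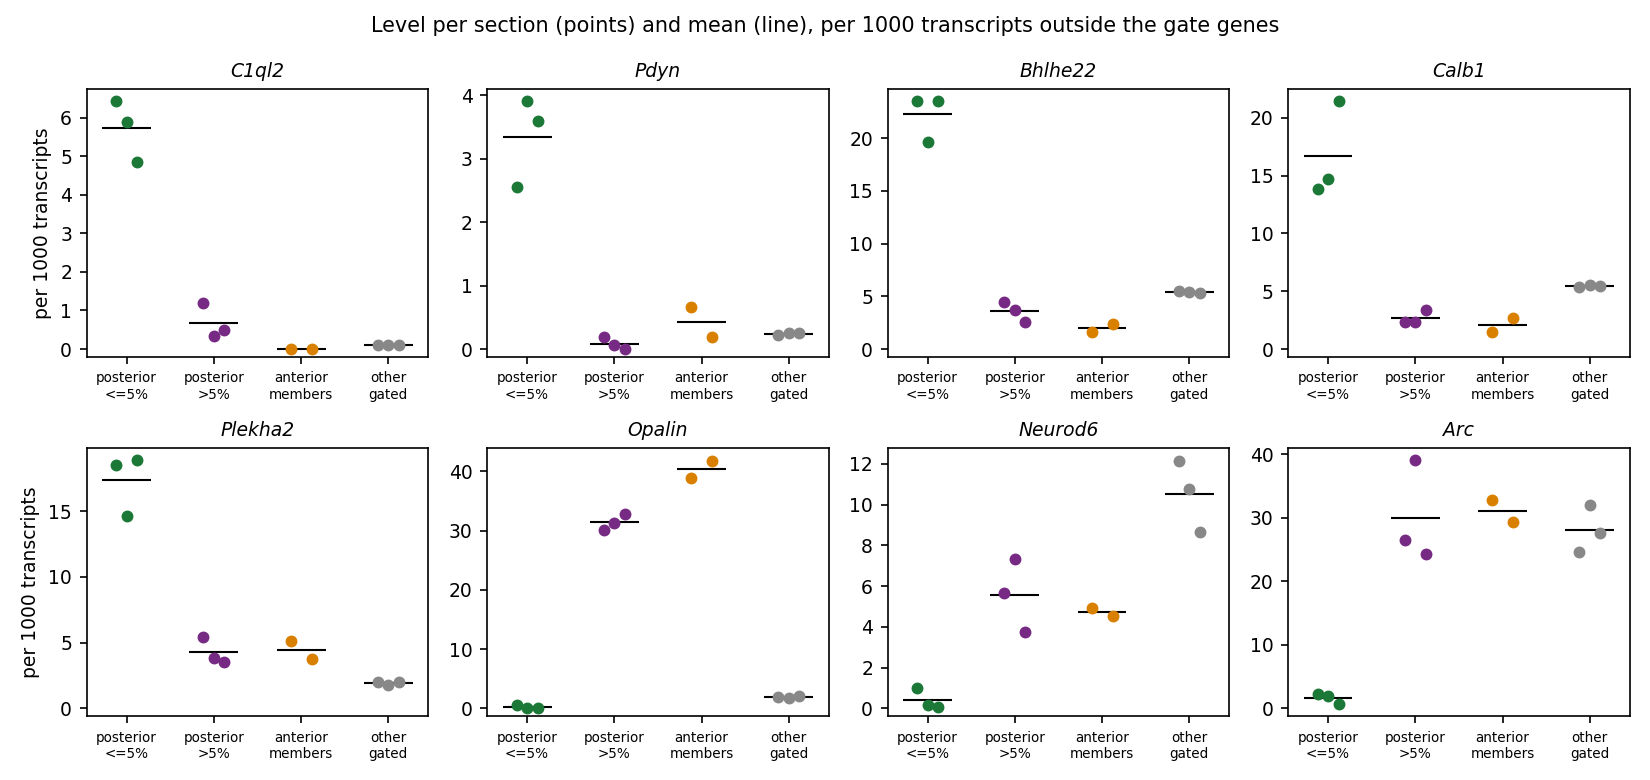
Level of 8 genes per section (vertical axes, transcripts per 1000 outside the gate genes) in posterior members with at most 5% and with over 5% oligodendrocyte transcripts, in anterior members and in other gated posterior cells; points are sections and lines means. The 3 low-share values of C1ql2, Pdyn, Bhlhe22, Calb1 and Plekha2 lie above all others, and those of Neurod6 and Arc below all others. Those of Opalin also lie below all others, which follows from the division, since Opalin is in the oligodendrocyte list.

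The limit on Gad1 and Gad2 left out further posterior cells with C1ql2. Granule cells are known to make some Gad1 although they are excitatory. The 208 posterior members of the Prox1 arm with C1ql2 held on average 1.93 Gad1 and 0.0625 Gad2 transcripts. Another 277 posterior cells with C1ql2 passed every other threshold of the arm but held 4 to 8 Gad transcripts, on average 5.35 of Gad1 and 0.202 of Gad2. They held 11.4 Bhlhe22 and 9.35 Plekha2 transcripts per cell, against 9.19 and 6.99 in the members with C1ql2. A further 83 such cells held 9 or more Gad transcripts, on average 17.4 of Gad1 and 5.16 of Gad2. They held 2.73 Vip transcripts per cell, against 0.0817 in the members with C1ql2, and also 12.0 of Bhlhe22 and 9.87 of Plekha2. No anterior cell with C1ql2 lay inside the limit and 7 lay outside it, with on average 32.1 Gad1, 16.9 Gad2 and 10.6 Vip transcripts. The gate thus captured 208 of 568 posterior cells with C1ql2 that passed the other thresholds. How many of the 568 are granule cells was not tested. Over all posterior cells, whatever their Slc17a7, Slc17a6 and Gad counts, 1190 held at least 8 Prox1 and 2 C1ql2 transcripts, and 153 of them were inside the gate. The limit on Slc17a6 kept out 703, that on Gad1 and Gad2 306 and that on Slc17a7 222, where a cell can fail more than 1 limit. In the anterior sections 278 cells held both genes at these counts, none inside the gate, and 265 of them exceeded the limit on Slc17a6. Prox1 with C1ql2 thus also occurred in cells with Slc17a6, the transporter of most thalamic neurons. The 1190 are therefore no count of granule cells.

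The Prox1 arm was then compared with other gated cells of the same 3 posterior sections, on counts summed per section, to ask which genes set it apart from the remaining Slc17a7 cells. In such sums a change in the mix of cells and a change within cells cannot be told apart. Markers of granule cells and of oligodendrocytes were higher, and markers of cortical layers were lower. All 4 measured granule cell markers outside the gate were higher, 5 of 7 oligodendrocyte genes were higher, and 8 of 12 cortical layer genes were lower. With edgeR's quasi-likelihood test and Benjamini-Hochberg adjustment, 161 of 291 genes passed at 0.05 (55.3%), of which 77 were higher (26.5%) and 84 lower (28.9%). The median log2 difference of all genes was -0.09, and -0.22 with library size in place of TMM scaling, a change that turned no named gene. With cells of over 5% glial and vascular transcripts left out on both sides, a filter that selects on oligodendrocyte genes among others, the median was -0.83, so that values under it are read against that shift. Counts of lists in this comparison are read against the 26.5% higher and 28.9% lower among all genes.

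Among the granule cell markers, C1ql2 was 35.7-fold higher (log2 5.16 ± 0.32 SE, adjusted p = 9.79e-46), with 5.01, 3.05 and 2.33 per 1000 in replicates 1, 3 and 4. The test pools its estimate of spread over all genes. So small a p therefore does not come from the 3 sections of this gene alone and is no measure of replication. Plekha2 was higher by log2 2.66 ± 0.20. With cells thinned to 200 transcripts, it was also found in 46.7% of posterior cells with at least 10 Opalin and no Slc17a7. The share was 26.3% in other gated posterior cells, and the part of high-share members in its difference was not tested. Cdh9, a cadherin of mossy fibre synapses, was higher by 1.60 ± 0.26 and Calb1 by 1.01 ± 0.19. The median of the 4 was 2.13. All 4 were higher in 3 of 3 sections, while 72.9% of all genes tested moved one way in all 3.

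Among the CA1 markers outside the gate, Neurod6 was 3.58-fold lower (log2 -1.84 ± 0.20) and Wfs1 2.01-fold lower (-1.01 ± 0.25). Pou3f1, a POU-domain factor, was higher by 0.73 ± 0.30 (adjusted p = 0.0300), but it stood at 0.481 ± 0.33 in low-share and 3.15 ± 0.38 in high-share members, against 1.12 ± 0.072 in other gated cells. Without cells of over 5% glial and vascular transcripts its difference was -0.45 (adjusted p = 0.456), above the median of -0.83 of all genes under that filter, and it missed the threshold without posterior replicate 3 (adjusted p = 0.176) or 4 (0.103). Of 3 CA2 and CA3 markers, Nectin3, an adhesion molecule, was lower (-0.62 ± 0.20), and it missed the threshold without replicate 1 (adjusted p = 0.0505) or 4 (0.0522). Calb2, which encodes calretinin of mossy cells, gave 0.77 ± 0.38 (adjusted p = 0.0764).

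Cortical layer genes were lower in 8 of 12 cases and higher in none, with a list median of -0.78. Lamp5, a lysosomal membrane protein of superficial layers, was 4.19-fold lower (log2 -2.07 ± 0.21). The upper-layer factor Cux2 (-1.42 ± 0.21) and Hs3st2, a heparan sulfate sulfotransferase (-1.18 ± 0.22), were also lower. Rorb, a nuclear receptor of layer 4, was lower by a smaller amount (-0.51 ± 0.19, adjusted p = 0.0142), and it missed the threshold without replicate 3 (adjusted p = 0.125) or 4 (0.139).

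Of 22 transcription factors, 6 were higher and 9 lower. Bhlhe22 (log2 1.43 ± 0.18) and Prdm8 (1.56 ± 0.20), which act together as repressors, were higher. Bcl11b, known as Ctip2 and present in granule cells, was higher by 1.35 ± 0.19, and Zfpm2, a cofactor of GATA proteins, by 1.44 ± 0.25. The homeobox factor Meis2 was 3.46-fold lower (-1.79 ± 0.20). Bhlhe22 stood at 18.4, 11.6 and 11.3 per 1000 in members of replicates 1, 3 and 4 and at 5.36 to 5.49 in other gated cells, with no overlap.

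Of 18 channels and receptors, 5 were higher and 7 lower, against 26.5% and 28.9% of all genes. The neuropeptide Y receptor Npy2r (log2 2.49 ± 0.38), the calcium channel subunit Orai2 (1.91 ± 0.22), the AMPA receptor partner Shisa6 (1.84 ± 0.27) and the cation channel Trpc4 (1.45 ± 0.26) were higher. The serotonin receptor Htr1f was 4.86-fold lower (-2.28 ± 0.35) and the relaxin receptor Rxfp1 4.36-fold lower (-2.12 ± 0.43).

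Of 11 neuropeptide and growth factor genes, Pdyn was the one that was higher, with a log2 difference of 2.999 ± 0.36, and 3 were lower. Pdyn stood at 1.91, 1.94 and 1.504 per 1000 in members of replicates 1, 3 and 4. Crh, the stress peptide corticotropin-releasing hormone, was lower (-2.28 ± 0.61), from 0.217 ± 0.027 per 1000 in other gated cells. With the joint limit on Gad1 and Gad2 replaced by at most 1 Gad2 transcript and no limit on Gad1, its difference was -0.17 (adjusted p = 0.670).

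Of 10 calcium-binding proteins 3 were higher and 3 lower, near the 26.5% and 28.9% of all genes. Cabp7, a calmodulin-like protein of the Golgi, was higher by log2 1.60 ± 0.18 and Cpne6, a copine that binds membranes in response to calcium, by 0.89 ± 0.18. Of 14 measured synapse organisers and release genes, C1ql2 was the one that was higher and 6 were lower, among them the secreted protein Nell1 (-1.98 ± 0.31). In the list of 22 guidance and adhesion genes, 9 were higher and 11 lower. The semaphorin receptor Nrp2 (1.13 ± 0.23) and the ephrin receptor Epha4 (0.56 ± 0.17) were higher, and the repellent ligand Sema3a was lower (-1.99 ± 0.30).

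Among activity-regulated genes, 2 of 6 were lower and none was higher. Arc was 1.85-fold lower (log2 -0.88 ± 0.17) and Fos 2.83-fold lower (-1.50 ± 0.30). In members Arc stood at 8.78, 20.8 and 14.4 per 1000 in replicates 1, 3 and 4, below the range of other gated cells in each section. Other genes with large differences were Ndst4, a heparan sulfate sulfotransferase (2.80 ± 0.32), Adarb2, a relative of the RNA-editing enzymes (2.74 ± 0.32), and Nwd2 (-2.02 ± 0.23).

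Glial genes were higher in the arm as a whole. Opalin was 7.77-fold higher (log2 2.96 ± 0.20), Sox10 7.43-fold (2.89 ± 0.20) and Gjc3 5.34-fold (2.42 ± 0.18). Leaving out cells of over 5% glial and vascular transcripts selects on these same genes, so the differences it left (-0.71, -1.30 and -0.71, with a median of -0.83 over all genes) are no test of them. Of 8 astrocyte genes, 4 were higher, Gfap among them (2.23 ± 0.19). The astrocyte list summed to 48.5, 81.9 and 38.9 per 1000 in low-share members of replicates 1, 3 and 4, against 30.1 to 33.5 in other gated cells, and its part in the comparison was not tested. Of 9 microglial genes 1 was lower, and of 25 vascular and meningeal genes 4 were higher and 3 lower. Of 6 interneuron genes outside the gate, Adarb2 was higher and Crh lower.

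**Figure D5:**
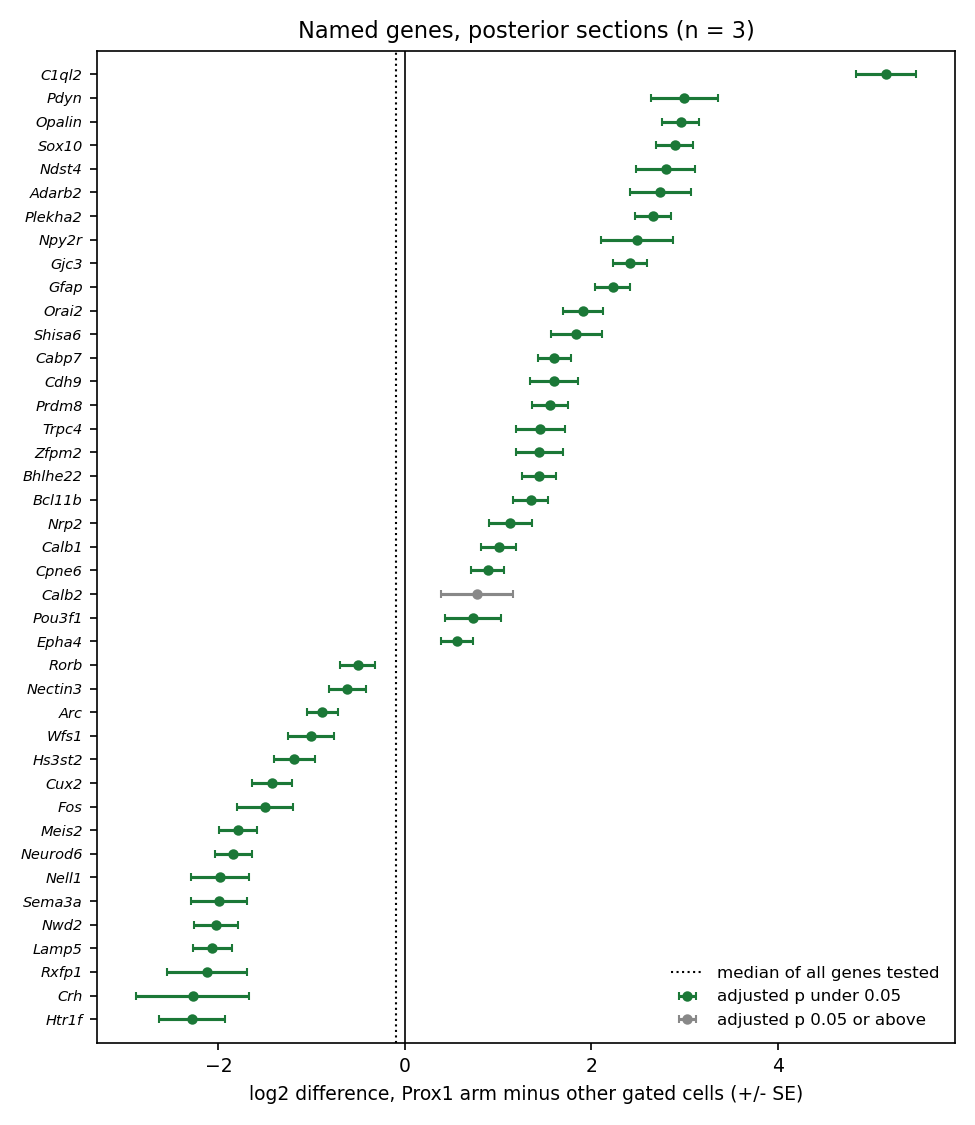
Log2 difference between the Prox1 arm and other gated cells of the posterior sections (horizontal axis, ± SE, n = 3 sections) for the genes named in this comparison, from edgeR. C1ql2 lies highest at 5.16, oligodendrocyte genes lie among the higher ones, and Calb2 (grey) did not pass the threshold.

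The members of the posterior sections were compared with the anterior members, the background of the same gate, on sums per section (3 against 2 sections). Here too a change in the mix of cells and a change within cells cannot be told apart. Over 5% oligodendrocyte transcripts were held by 54 of 57 anterior members and by 153 of 379 posterior members. The granule cell markers were all higher in the posterior members, and 5 of 7 oligodendrocyte genes were lower. Of 226 genes tested, 85 passed (37.6%), 54 of them higher (23.9%) and 31 lower (13.7%) in posterior members. This count was 42 without anterior replicate 1 and 45 without anterior replicate 2, since 1 anterior section then stood alone and was assumed to vary like the others. With library size in place of TMM scaling 99 genes passed, 49.5% of them higher against 63.5% with TMM, and the median of all genes moved from -0.04 to -0.23 with no change of direction of a named gene. With the slide as a term 114 passed, 50.0% of them higher. The slide of replicates 3 and 4 held no anterior section. Posterior replicate 1 shared a slide with both anterior sections. For each gene given by section below, its value lay on the same side as in the other posterior sections. That is 1 section, and it also had the largest part of low-share members (73.3%), so the part of the slide cannot be told apart.

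C1ql2 was at 0 in anterior members and at 5.01, 3.05 and 2.33 per 1000 in posterior replicates 1, 3 and 4, at least 26.1-fold higher against a floor of 3 transcripts over the anterior group (adjusted p = 0.00235). Calb1 was 5.49-fold higher (log2 2.46 ± 0.32), with 10.8, 8.36 and 10.9 against 1.502 and 2.73. Plekha2 was 2.98-fold higher (1.58 ± 0.31), with 14.96, 9.13 and 9.99 against 5.09 and 3.76. Cdh9 was 2.19-fold higher (1.13 ± 0.36, adjusted p = 0.0304), and it missed the threshold in 7 of the alternatives, with adjusted p = 0.229 without anterior replicate 1 and 0.108 without anterior replicate 2. The groups did not overlap for any of the 4, while they did not overlap for 66.8% of all genes tested.

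Rreb1, which the list of transcription factors does not hold, was 16.5-fold higher (log2 4.05 ± 0.50), with 5.51, 3.42 and 6.52 per 1000 against 0.250 and 0.470. Bhlhe22 was 8.18-fold higher (3.03 ± 0.38), with 18.4, 11.6 and 11.3 against 1.59 and 2.35. Prdm8 was 6.77-fold higher (2.76 ± 0.32) and Bcl11b 2.81-fold (1.49 ± 0.30). Of 20 transcription factors tested, 5 were higher and 3 lower, near the 23.9% and 13.7% of all genes, with Meis2 (-1.41 ± 0.36) and Pou3f1 (-0.89 ± 0.26) among the lower. Meis2 missed the threshold without anterior replicate 2 (adjusted p = 0.130) and Pou3f1 in 6 of the alternatives, with adjusted p from 0.0515 to 0.135.

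Ndst4 was 13.3-fold higher (log2 3.73 ± 0.66), from 0.0835 and 0.376 per 1000 in the anterior members. Pip5k1b, a kinase that makes phosphatidylinositol bisphosphate, was higher by 2.62 ± 0.36 and the choline-transporter-like gene Slc44a5 by 2.74 ± 0.56. Adarb2 was higher by 2.65 ± 0.53, with 0.86 (adjusted p = 0.114) under the limit of 1 on Gad2 and none on Gad1. Npy2r was higher by 2.82 ± 0.64, and it missed the threshold without either anterior replicate (adjusted p = 0.0643 and 0.0652) and with other gated cells of each section as the reference (0.589).

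Counts of the remaining lists are read against the 23.9% higher and 13.7% lower among all genes tested. Calcium-binding genes were higher in 4 of 10 cases and lower in 1, with Cabp7 at log2 2.22 ± 0.37 and Cpne6 at 2.14 ± 0.34. Guidance and adhesion genes were higher in 4 of 20 cases and lower in 2, near the shares of all genes. Nrp2 (1.73 ± 0.37) and Epha4 (1.51 ± 0.28) were among the higher, and Sema6a, a transmembrane semaphorin, among the lower (-1.004 ± 0.26). Of 6 activity-regulated genes, the growth factor Bdnf (2.07 ± 0.50) and the neurite factor Nrn1 (1.17 ± 0.24) were higher and Arc was lower (-0.91 ± 0.28). Pdyn was higher by 2.23 ± 0.59. Without anterior replicate 1, Bdnf, Nrp2 and Arc missed the threshold (adjusted p = 0.0985, 0.0953 and 0.0982). Without anterior replicate 2, Pdyn, Arc, Sema6a and Hs3st2 missed it (0.131, 0.0667, 0.0806 and 0.0522). Hs3st2, one of 2 of 12 cortical layer genes that were lower, a share near that of all genes, gave -1.32 ± 0.27.

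Opalin was 2.46-fold lower in posterior members (log2 -1.30 ± 0.27), from the levels per section given above. Of 12 vascular and meningeal genes tested, 7 were higher and 1 lower, against 23.9% and 13.7% of all genes tested. Kdr, which encodes the receptor VEGFR2, was 8.06-fold higher (3.01 ± 0.51), with 1.82, 1.40 and 1.46 per 1000 against 0.250 and 0.188. Other gated posterior cells held Kdr at 1.70 ± 0.16, so that the anterior members were low and the posterior ones were near the level of their section's other cells. The vascular list summed to 18.8 to 26.3 per 1000 in posterior members, 10.2 and 12.2 in anterior members and 24.3 to 25.6 in other gated posterior cells, and its part in the comparison was not tested.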

How the data were processed

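Transcripts were measured by Xenium in 7 sections. The values are raw transcript counts per cell and gene, as the authors deposited them, with a second table that names each cell's section and control probe counts. The submitters' processing notes name Seurat, and the sources used here do not give how cells were segmented or filtered. Cells were gated on raw counts, and counts were summed per section and class (sums of at least 10 cells). The 6 gate genes were left out of tests and library sizes. Sums were tested with edgeR 4.0.16 (R 4.3.3): filterByExpr, TMM, quasi-likelihood F test and Benjamini-Hochberg adjustment at 0.05, with the section as a block within posterior sections and none between positions. The SE is the absolute log2 difference divided by the square root of F. Alternatives were DESeq2 1.42.0, other scaling, filters, gates, blocks and reference cells, and leaving out each section. Simulated counts were used to test the fits: 30 of 30 genes changed 2-fold were recovered for the arm against other gated cells, and 28 of 30 for position. The simulation gave every gene the same fixed spread and changed only genes with ample expected counts. Its recovery therefore does not cover rare genes or genes that vary more between sections. No doublet caller was run, because these are segmented tissue cells.

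The members, the marker and pathway lists and the tests were chosen with earlier results of these data known. Named genes are, per comparison, examples of the 10 largest differences in each direction among genes past the threshold with one direction in every section or pair of sections, of the hippocampal and cortical markers, and of pathway genes past the threshold; 2010300C02Rik, Gjc3 and Gfap within posterior sections and Opalin between positions were added after their values were seen. A listed gene that the counts include is not reported here by name. Python 3.11.15, numpy 2.4.6, pandas 2.3.3, scipy 1.17.1 and matplotlib 3.10.9 were used.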

Additional observations from a re-analysis of the deposited data

Results flagged for a closer look

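The difference between the Prox1 arm and other gated cells was itself different between posterior and anterior sections for 98 of 291 genes, 45 in the higher and 53 in the lower direction, by the interaction of class and position in edgeR with the section as a block. C1ql2 passed this test, and its size is given as the bound of at least 26.1-fold between posterior and anterior members, since anterior members held none. On the log2 scale the interaction was 3.71 for Rreb1, 3.27 for Ndst4, 2.72 for Kdr, 2.49 for Bhlhe22, 2.32 for Adarb2, 2.27 for Pip5k1b, 2.12 for Prdm8 and 2.02 for Slc44a5. It was -1.53 for Meis2 and -1.45 for Hs3st2. For each of these genes the difference between members and other gated cells was therefore not the same at the posterior and anterior positions. Members were a different mix of cells at these positions, and a change in that mix cannot be told apart from one within cells. The interaction setting was added after the data were seen. No group had the 4 sections that a test for an outlying section needs.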

How the results depend on the processing

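For the Prox1 arm against other gated cells, the alternatives gave between 131 and 180 genes, and leaving out 1 section gave 124 to 146, against 161. For posterior against anterior members, leaving out 1 section gave 42 to 95 genes against 85, the lowest 2 values being those without an anterior section, and the other alternatives gave 85 to 120 apart from the replicate block. Of the 161 genes, 157 also passed in the same direction with no replicate block, where 175 passed. Between positions, a replicate block over all 7 sections, added after the data were seen, gave 51 genes, 47 of them shared in direction with the 85. Posterior and anterior sections share 1 replicate number, so posterior replicates 3 and 4 do not enter that estimate and whether the numbers pair the sections could not be checked. Cdh9, Cpne6, Meis2, Npy2r, Nrp2, Pdyn and Pou3f1 missed the threshold under that block (adjusted p = 0.0509, 0.0620, 0.0527, 0.0794, 0.0880, 0.174 and 0.104). Leaving out cells with over 5% glial and vascular transcripts gave 171 genes, 123 of them shared in direction with the main 161, and moved the median of all genes to -0.83. Under it the value was -0.71 for Opalin, -1.30 for Sox10, -0.71 for Gjc3, -0.45 for Pou3f1 and -0.085 for Calb2, each but that of Sox10 above this median, and the filter itself selects on the first 3 of these genes. The stricter gate took Crh, Wfs1, Rorb and Pou3f1 out of the calls within posterior sections (adjusted p = 0.0505, 0.0762, 0.0850 and 0.774), and Pou3f1 also with library size (0.0763) and with at most 1 Gad2 and no limit on Gad1 (0.100). Between positions, Pdyn missed the threshold with other gated cells as the reference (0.0558). The stricter gate and that filter could not be fitted between positions, because anterior sums fell below 10 cells. All comparisons of the Fibcd1 arm were not run for the same reason, and counting cells past both thresholds as granule cells changed nothing, since there were none.

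Low counts limit the anterior members most, with 57 cells and 22623 transcripts outside the gate genes against 152698 in posterior members. Whether sections are separate animals, where members lie in the section and how far segmentation mixed neighbouring cells were not tested.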
